A study of Mus musculus with 12 samples.

Results

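Kinesins are motor proteins that use ATP to move along or remodel microtubules. Mitotic members build and divide the spindle of a cycling cell and appear with each division, while transport members carry vesicles, organelles and protein complexes, in neurons mostly outwards along the axon and into dendrites. In the embryonic cerebral cortex, dividing radial glia and their postmitotic neuron daughters lie side by side, so both kinds of motor are present in 1 piece of tissue. The kinesin genes were taken as all rows whose symbol starts with Kif and a digit, or is Kifc1, Kifc2 or Kifc3. There were 43 such rows among 24411 genes. Of these, 40 were motor genes and 3 were not. The 3 were Kif1bp, a kinesin-binding protein, Kif16bos, a noncoding RNA near Kif16b, and Kif4-ps, a pseudogene. By their textbook roles the motors fell into 13 mitotic, 13 transport, 5 microtubule dynamics or scaffold, 6 cilium and 3 other genes.

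The series holds mRNA sequencing of mouse cerebral cortex, 1 embryo per library, with 12 libraries in 4 groups of 3 embryos. Embryos were wild type (WT) and HARE5Hs/Hs knock-in embryos at the embryonic age E12.5, and the same genotypes at E14.5, the numbers being days of gestation. The HARE5 enhancer acts on Fzd8, a Wnt receptor gene, and in the knock-in both alleles of this mouse enhancer hold the human sequence. The whole cortical piece was extracted, so fewer cells of a type and less RNA per cell cannot be told apart, and sex and litter were not labelled.

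Libraries held 11593202 to 17670103 counts, and kinesins took 0.4235 to 0.5159% of them at E12.5 and 0.616 to 0.7287% at E14.5. The cortex markers Emx1, of dorsal progenitors, and Tbr1, of early cortical neurons, were detected in every library. Emx1 was at 47.09 to 76.85 CPM (counts scaled to library size) at E12.5 and 57.95 to 70.76 CPM at E14.5, and Tbr1 at 95.29 to 177.5 and 250.1 to 433.4 CPM. Markers of other cells were also present. The 7 meninges and mesenchyme markers summed to 1164 to 2201 CPM at E12.5, to 93.11 to 842.6 CPM in WT at E14.5 and to 10.93 to 435.1 CPM in HARE5Hs/Hs at E14.5. The 8 neuron markers summed to 1275 to 2275 CPM at E12.5 and 3260 to 5720 CPM at E14.5, and the 6 cycling cell markers to 2735 to 3588 and 2283 to 3010 CPM. The 7 radial glia markers summed to 2622 to 3070 CPM at E12.5 and 2331 to 2553 CPM at E14.5. The 8 erythroid markers summed to 3346 to 12010 CPM at E12.5, and at E14.5 to 735.7 to 2234 CPM in WT and 2502 to 5724 CPM in HARE5Hs/Hs, without overlap. The 7 ventral telencephalon markers, of the neighbouring tissue, summed to 6.451 to 167.2 CPM at E12.5, and at E14.5 to 22.37 to 40.48 CPM in WT and 53.68 to 124.9 CPM in HARE5Hs/Hs, again without overlap. The 6 endothelial markers summed to 245.9 to 345.1 CPM at E12.5 and 91.49 to 204.1 CPM at E14.5, and the 6 microglia markers to 22.05 to 60.04 CPM in all libraries. E14.5 HARE5Hs/Hs replicate 3 stood apart, with the fewest counts, the fewest genes detected (14537), the highest neuron marker sum, the lowest meninges sum (Dcn and Lum at 0) and 1.184 CPM of 6 choroid plexus markers (Kl, Clic6 and Kcne2 at 0), against 29.66 to 723.8 CPM in the other E14.5 libraries.

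Of the 40 motors, 38 had counts and all 38 passed the filter on low counts. Kif12 and Kif2b were at 0 in all 12 libraries, as was Kif4-ps, and Kif16bos held at most 3 counts in a library. Kifc1 has a near-identical copy, Kifc5b, which held 193 to 511 counts per library, so reads of the pair may have been divided between them and the Kifc1 values are uncertain. Genes were compared with edgeR's quasi-likelihood test over 14311 genes, and a gene passed at a Benjamini-Hochberg adjusted p under 0.05. CPM compare 1 gene between libraries, whereas FPKM (fragments scaled to transcript length and library size, the authors' values) compare genes with each other.

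At E12.5 the most abundant kinesins per length were mitotic, and at E14.5 they were motors of neurons. In WT at E12.5 the highest FPKM was that of Kif22, at 85.7 ± 10.3 (SD, n = 3), a motor that binds chromosome arms. It was followed by Kif20a at 66.4 ± 4.78 and Kif11 at 62.0 ± 2.84, whose libraries overlapped in FPKM. Kif1b, at 51.8 ± 6.22, and Kif2c, at 51.7 ± 3.71, came next and overlapped too. At E14.5 in WT the order was headed by Kif21b at 134 ± 19.2 FPKM, above Kif1b at 93.3 ± 8.57, Kif5c at 89.7 ± 7.91 and Kif1a at 78.3 ± 6.25. Kif1b and Kif5c overlapped there, as did Kif5c and Kif1a. Kif22 was at 67.6 ± 8.20 FPKM there. In HARE5Hs/Hs at E14.5, Kif21b reached 172 ± 22.4 FPKM, Kif5c 107 ± 11.7 and Kif1b 104 ± 5.94, the last pair overlapping, while Kif22 stood at 56.2 ± 5.45.

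**Figure D1:**
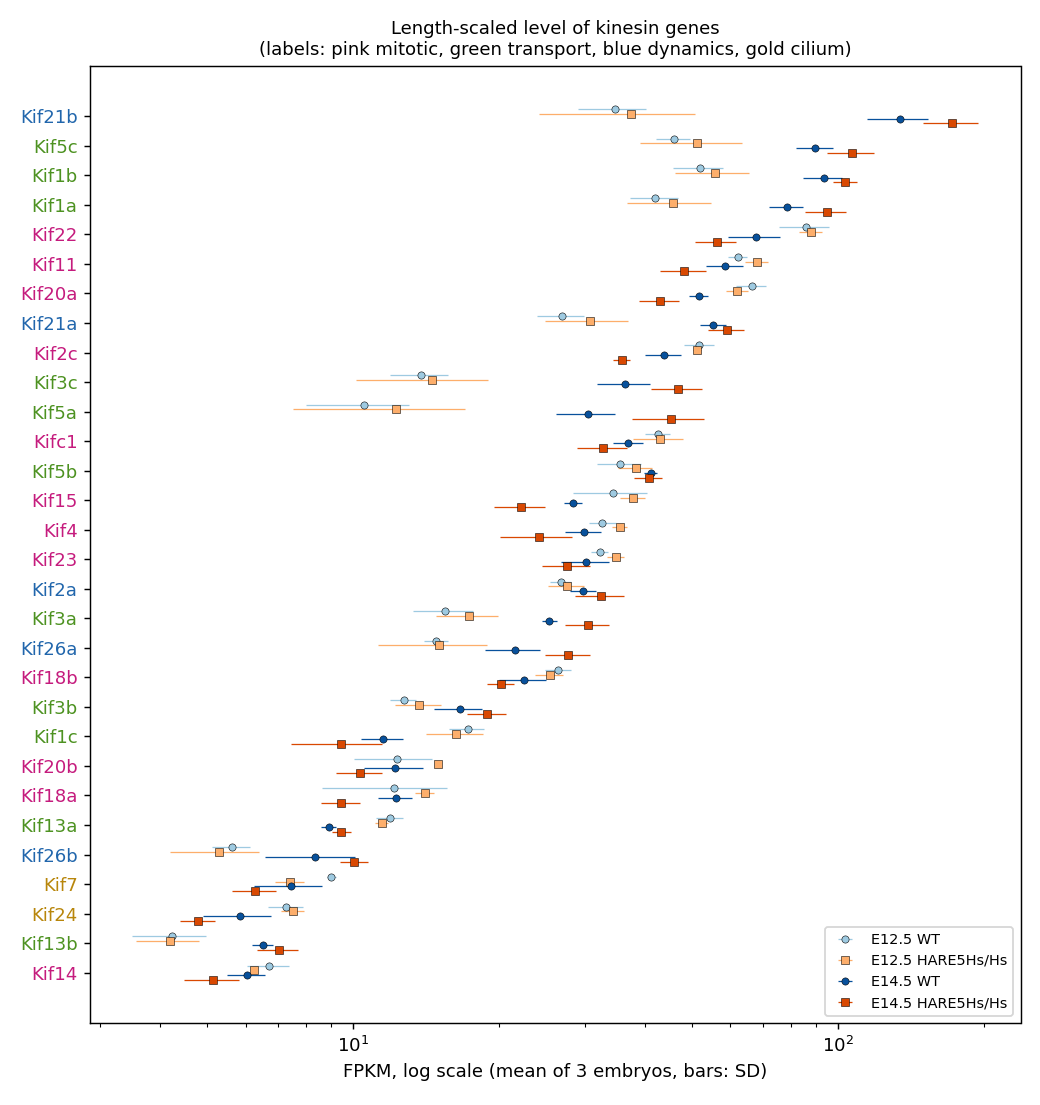
FPKM of the 30 kinesin genes with a group mean above 5, on a log axis; points are means of 3 embryos and bars are SD, light symbols are E12.5, dark symbols E14.5, circles WT and squares HARE5Hs/Hs. Kif21b moves from 34.6 (WT) and 37.5 (HARE5Hs/Hs) FPKM at E12.5 to the highest place at E14.5, while Kif22 moves down from 85.7 and 87.9 to 67.6 and 56.2.

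Between E12.5 and E14.5, 18 of 38 motors passed the test in WT, 13 higher and 5 lower at E14.5, beside 35.2% of all 14311 genes (20% higher, 15.2% lower). In HARE5Hs/Hs, 28 of 38 passed, 14 in each direction, beside 45.7% of all genes (23.7% higher, 22% lower). The 5 lower in WT became 3 on leaving out WT embryo 2 or 3 of E12.5, or 1 or 3 of E14.5, and 8 on leaving out WT embryo 2 of E14.5. The median log2 fold change of the 38 motors was −0.03 in WT and −0.26 in HARE5Hs/Hs, beside −0.01 and −0.03 over all genes. These totals hide opposite movements of the classes, which are given below class by class. The 2 age comparisons use different embryos and share no library.

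Transport motors were mostly higher at E14.5. Of the 13 transport kinesins, 8 rose and 2 fell in WT, and 8 rose and 2 fell in HARE5Hs/Hs, with median log2 fold changes of 0.64 and 0.74. Over all genes, 20% rose and 15.2% fell in WT, and 23.7% rose and 22% fell in HARE5Hs/Hs. The 8 that rose were Kif1a, Kif1b, Kif3a, Kif3b, Kif3c, Kif5a, Kif5c and Kif13b in both genotypes, and the 2 that fell were Kif1c and Kif13a. In the authors' deposited tables, 8 were higher and 2 lower in each genotype as well.

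Kinesin-1 is the main motor of axonal transport, and its 3 heavy chains are Kif5a and Kif5c, enriched in neurons, and the widely expressed Kif5b. Kif5a stood at 78.0, 50.8 and 58.5 CPM in WT and 106, 53.8 and 58.6 CPM in HARE5Hs/Hs at E12.5, while the E14.5 embryos stood at 203, 185 and 155 CPM (WT) and 220.3, 274 and 307 CPM (HARE5Hs/Hs). Every E14.5 library was above every E12.5 library, and within E12.5 the first HARE5Hs/Hs embryo was the highest. The log2 fold change was 1.54 ± 0.24 (SE) in WT (edgeR adjusted p = 0.000694) and 1.88 ± 0.24 in HARE5Hs/Hs (edgeR adjusted p = 0.000133), a 2.9-fold and a 3.67-fold rise. Kif5c was more abundant and moved less. It was at 328, 305 and 279 CPM in WT and 432, 273 and 319 CPM in HARE5Hs/Hs at E12.5, and at 652, 611 and 551 CPM and 631, 716 and 779 CPM at E14.5. Its libraries did not overlap between ages, with log2 fold changes of 0.99 ± 0.15 in WT (edgeR adjusted p = 0.000507) and 1.05 ± 0.15 in HARE5Hs/Hs (edgeR adjusted p = 0.000192). For Kif5b the CPM were 222, 217 and 182 in WT and 209, 218 and 244 in HARE5Hs/Hs at E12.5, and 251, 240.4 and 238 and 234, 224 and 253 at E14.5. Its log2 fold change was 0.23 ± 0.09 in WT and 0.09 ± 0.09 in HARE5Hs/Hs and did not pass in either (edgeR adjusted p = 0.0596 and 0.445).

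The make-up of the kinesin-1 heavy chains therefore differed between ages. As a share of the summed FPKM of the 3 genes, Kif5b went from 38.7 ± 1.69% in WT and 38.2 ± 6.98% in HARE5Hs/Hs at E12.5 to 25.5 ± 1.46% and 21.2 ± 1.81% at E14.5 (SD, n = 3). Kif5a went from 11.4 ± 2.06% and 11.8 ± 2.77% to 18.8 ± 1.11% and 23.4 ± 1.51%. Kif5c held the largest share in all 4 groups, 49.93 ± 0.80% and 49.97 ± 4.27% at E12.5 and 55.6 ± 0.35% and 55.4 ± 0.62% at E14.5.

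**Figure D2:**
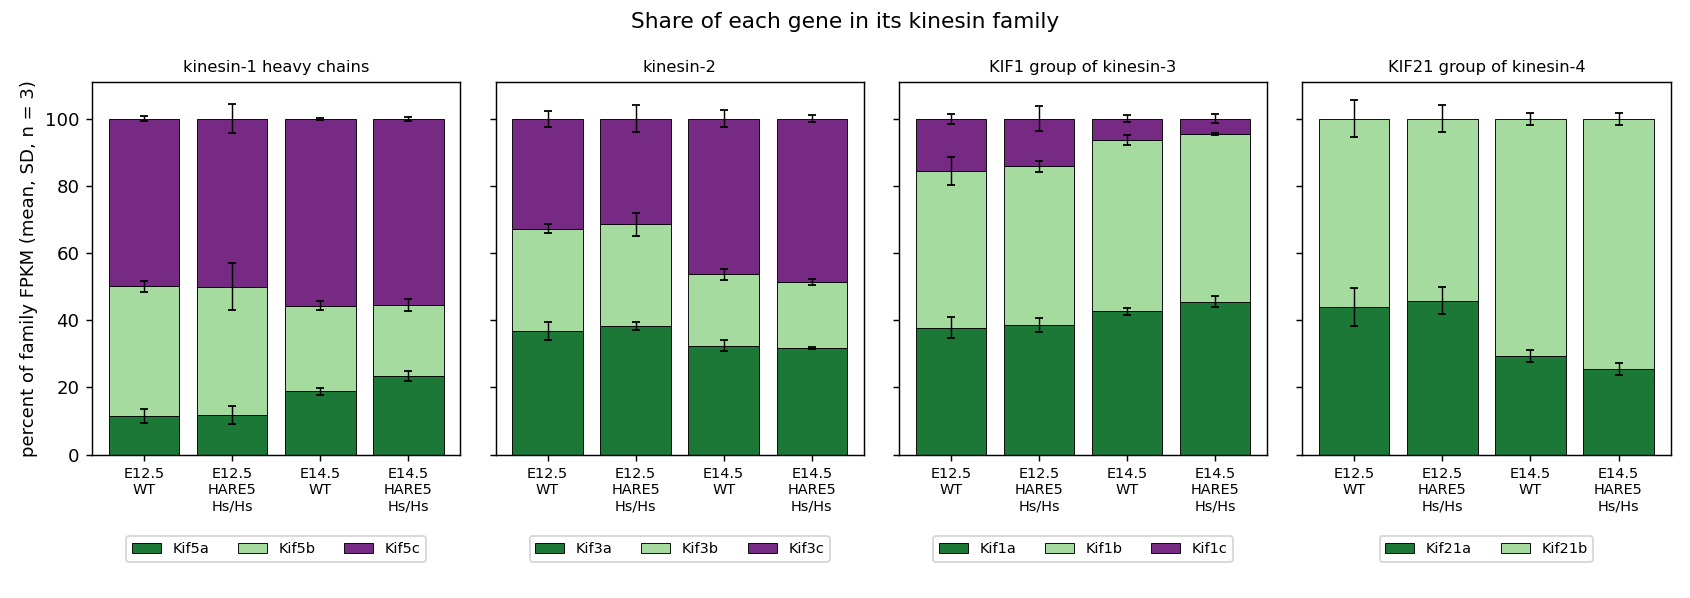
Share of each gene in the summed FPKM of its family, in percent, for kinesin-1, kinesin-2, KIF1 and KIF21 genes; bars are means of 3 embryos per group and error bars are SD, drawn at the top of each gene's segment. The Kif5a, Kif3c and Kif21b segments are larger at E14.5 (23.4, 48.6 and 74.4% in HARE5Hs/Hs) than at E12.5 (11.8, 31.5 and 54.1%), and the Kif1c segment is smaller.

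Kinesin-2 motors carry cargo in axons and build cilia, with Kif3a paired to Kif3b or to Kif3c. Kif3c was at 104, 78.6 and 92.6 CPM in WT and 130.3, 75.3 and 84.9 CPM in HARE5Hs/Hs at E12.5, and at 274, 249 and 215 CPM and 270.2, 324 and 339 CPM at E14.5. Groups of different age did not overlap. The log2 fold change was 1.42 ± 0.18 in WT (edgeR adjusted p = 0.000267) and 1.68 ± 0.19 in HARE5Hs/Hs (edgeR adjusted p = 6.34e-05). Kif3a, the common partner, rose less. Its CPM were 93.6, 79.8 and 70.7 in WT and 106, 80.1 and 87.5 in HARE5Hs/Hs at E12.5, and 140.0, 133 and 133 and 143, 162 and 175 at E14.5, again with no overlap between ages. The log2 fold changes of Kif3a were 0.73 ± 0.12 and 0.81 ± 0.12 (edgeR adjusted p = 0.00089 and 0.000284). Those of Kif3b were smaller, 0.40 ± 0.11 and 0.46 ± 0.10 (edgeR adjusted p = 0.0111 and 0.00372), and with the first E14.5 WT embryo left out the WT value was 0.30 with an adjusted p of 0.0677. Kif3c thus made up 32.8 ± 2.32% (WT) and 31.5 ± 4.01% (HARE5Hs/Hs) of the kinesin-2 FPKM at E12.5 and 46.4 ± 2.59% and 48.6 ± 1.09% at E14.5. Kif17, a homodimeric kinesin-2 of dendrites, was low (0.376 to 2.36 CPM) and passed in neither genotype.

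Kinesin-3 motors Kif1a and Kif1b carry precursors of synaptic vesicles, and Kif1b also carries mitochondria. Kif1a was at 376, 298 and 342 CPM in WT and 443, 297 and 363 CPM in HARE5Hs/Hs at E12.5, and at 667, 670.1 and 582 CPM and 684, 785 and 817 CPM at E14.5. Ages did not overlap, and the log2 fold change was 0.92 ± 0.14 in WT (edgeR adjusted p = 0.000507) and 1.05 ± 0.14 in HARE5Hs/Hs (edgeR adjusted p = 0.000133). Kif1b was at 512, 489.7 and 407 CPM and 616, 419 and 496 CPM at E12.5, and at 977, 882 and 807 CPM and 916, 1015 and 1021 CPM at E14.5, in the same order of genotypes. It too was higher in all 6 E14.5 libraries than in all 6 E12.5 libraries, by 0.92 ± 0.13 and 0.95 ± 0.13 on the log2 scale (edgeR adjusted p = 0.000456 and 0.000208). Kif13b, a kinesin-3 of endosomes and polarity complexes, rose by 0.64 ± 0.14 and 0.74 ± 0.14 (edgeR adjusted p = 0.00514 and 0.00141).

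A pair of kinesin-3 genes moved the other way. That was 2 of 13 transport kinesins, no clear excess over the 15.2% (WT) and 22% (HARE5Hs/Hs) of all genes called lower. Kif1c, a kinesin-3 of vesicles and the Golgi that is expressed in many cell types, was at 118, 102 and 119 CPM in WT and 91.1, 118 and 113 CPM in HARE5Hs/Hs at E12.5, and at 68.9, 76.7 and 84.7 CPM and 76.6, 60.1 and 49.7 CPM at E14.5. Ages did not overlap, and the lowest library was E14.5 HARE5Hs/Hs replicate 3. The log2 fold change was −0.56 ± 0.15 in WT (edgeR adjusted p = 0.0116) and −0.78 ± 0.15 in HARE5Hs/Hs (edgeR adjusted p = 0.0012). Kif13a, a motor of recycling endosomes, was at 81.0, 83.6 and 73.8 CPM in WT and 74.2, 78.7 and 76.3 CPM in HARE5Hs/Hs at E12.5, and at 62.4, 59.8 and 58.7 CPM and 66.6, 60.4 and 62.2 CPM at E14.5. Its libraries spread little within a group and did not overlap between ages, with log2 fold changes of −0.40 ± 0.07 and −0.28 ± 0.07 (edgeR adjusted p = 0.00155 and 0.00812). Kif16b, a motor of early endosomes, had log2 fold changes of −0.28 ± 0.18 and −0.38 ± 0.18 that did not pass (edgeR adjusted p = 0.248 and 0.101). Of the 7 meninges markers, 2 fell with age in WT, where 1 was above 0, and 6 in HARE5Hs/Hs, and of the 6 endothelial markers 5 fell in WT and 6 in HARE5Hs/Hs. Of the 7 erythroid markers tested, 4 fell in WT and 3 in HARE5Hs/Hs. The part of these markers in the Kif1c and Kif13a values was not tested.

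Among the 5 motors that regulate microtubule growth or serve as scaffolds, 4 rose in WT (20% of all genes) and all 5 in HARE5Hs/Hs (23.7% of all genes). None fell in either. The WT count was 2 on leaving out WT embryo 1 or 2 of E14.5. Kif21b, a kinesin-4 that pauses microtubule growth and is abundant in neurons, had the largest positive fold change of all 38 tested motors in both genotypes. It was at 348, 254 and 325 CPM in WT and 462, 225 and 318 CPM in HARE5Hs/Hs at E12.5, and at 1352, 1265 and 1023 CPM and 1319.7, 1595 and 1690.0 CPM at E14.5. The lowest E14.5 library, at 1023 CPM, was far above the highest E12.5 library, at 462 CPM. The log2 fold change was 1.97 ± 0.22 in WT (edgeR adjusted p = 0.000146) and 2.20 ± 0.22 in HARE5Hs/Hs (edgeR adjusted p = 4.56e-05), 3.93-fold and 4.58-fold. Its paralog Kif21a was at 173, 171 and 141 CPM and 224, 152 and 180.0 CPM at E12.5, and at 348, 350.0 and 313 CPM and 337, 336 and 386 CPM at E14.5, without overlap of ages. Kif21a rose by 1.06 ± 0.13 in WT and 0.93 ± 0.13 in HARE5Hs/Hs on the log2 scale (edgeR adjusted p = 0.000214 and 0.000208). Kif21b thereby went from 56.1 ± 5.57% (WT) and 54.1 ± 4.07% (HARE5Hs/Hs) of the KIF21 FPKM at E12.5 to 70.7 ± 1.80% and 74.4 ± 1.81% at E14.5.

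Kif26a and Kif26b, kinesin-11 proteins that bind microtubules without motor activity, were also higher at E14.5. Kif26a was at 93.7, 101 and 105 CPM in WT and 129.6, 94.8 and 79.7 CPM in HARE5Hs/Hs at E12.5, and at 156, 159.8 and 125 CPM and 171, 181 and 208 CPM at E14.5. Its log2 fold change was 0.56 ± 0.15 in WT (edgeR adjusted p = 0.015) and 0.88 ± 0.15 in HARE5Hs/Hs (edgeR adjusted p = 0.000779), and ages did not overlap within a genotype. The WT call of Kif26a was lost on leaving out WT embryo 1 of E12.5 (adjusted p = 0.0525) or embryo 1 (0.0649) or 2 (0.0608) of E14.5. Kif26b was at 43.9, 41.3 and 36.6 CPM and 47.1, 36.1 and 31.5 CPM at E12.5, and at 71.1, 65.2 and 46.7 CPM and 69.0, 70.8 and 77.7 CPM at E14.5. Its 3 WT libraries at E14.5 were more spread than those of HARE5Hs/Hs. Log2 fold changes were 0.59 ± 0.16 and 0.92 ± 0.17 (edgeR adjusted p = 0.016 and 0.000868), and the WT call of Kif26b was lost on leaving out WT embryo 3 of E12.5 (0.0578) or embryo 1 (0.0865) or 2 (0.0578) of E14.5. Kif2a, a depolymerase that trims axon branches, changed least: its log2 fold change was 0.19 ± 0.09 in WT and did not pass (edgeR adjusted p = 0.127), and 0.25 ± 0.09 in HARE5Hs/Hs (edgeR adjusted p = 0.0452). That HARE5Hs/Hs call of Kif2a was lost without E12.5 replicate 2 (adjusted p = 0.141) or 3 (0.099) and without E14.5 replicate 1 (0.0854) or 3 (0.16).

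Every mitotic kinesin that passed was lower at E14.5. Of 12 tested, 3 fell in WT (Kif20a, Kif22 and Kif2c) and 11 fell in HARE5Hs/Hs (all but Kif14), and none rose in either. The median log2 fold change was −0.16 in WT and −0.53 in HARE5Hs/Hs. Over all genes, 15.2% fell in WT and 22% in HARE5Hs/Hs. The authors' deposited tables list 1 mitotic kinesin as lower in WT and 10 in HARE5Hs/Hs at an adjusted p under 0.05. That a gene passed in 1 genotype and not in the other does not show that the genotypes differ, and the test of that difference is given further on. The WT count was 1 on leaving out WT embryo 2 or 3 of E12.5, or 1 or 3 of E14.5, and 4 on leaving out WT embryo 2 of E14.5. The HARE5Hs/Hs count was 8 without E14.5 HARE5Hs/Hs replicate 3, the library that stood apart, and the same 8 genes (Kif11, Kif15, Kif18a, Kif20a, Kif20b, Kif22, Kif2c and Kif4) passed without E12.5 HARE5Hs/Hs replicate 2.

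**Figure D3:**
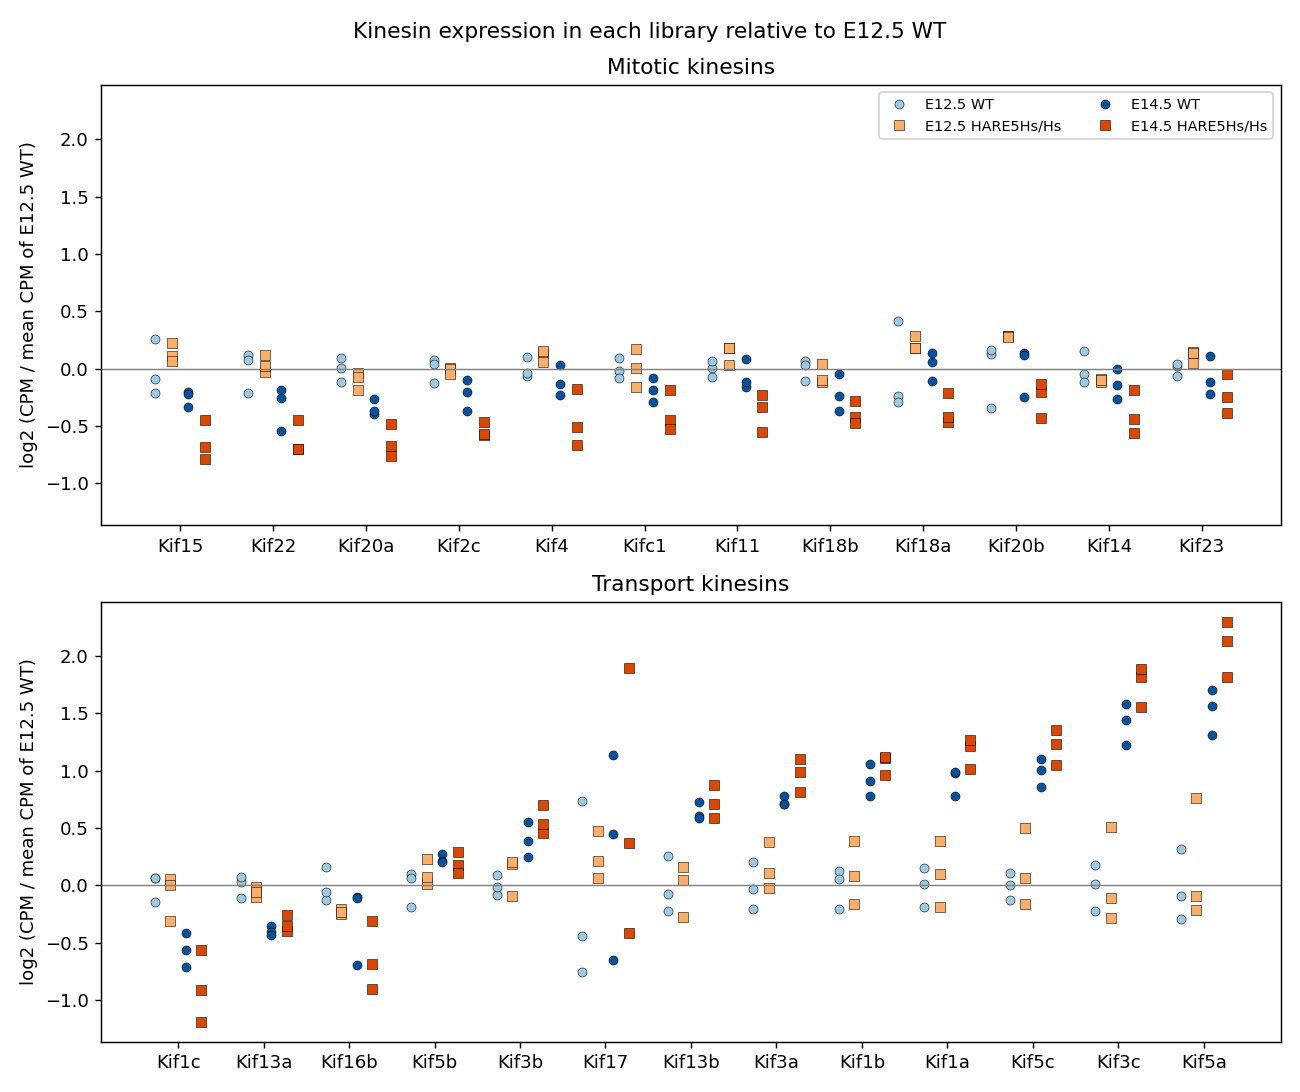
Level of each mitotic (upper) and transport (lower) kinesin in each of the 12 libraries, as log2 of its CPM over the mean CPM of E12.5 WT, so that 0 is the E12.5 WT mean; 1 point is 1 embryo, light symbols are E12.5 and dark symbols E14.5, circles WT and squares HARE5Hs/Hs. Most mitotic genes lie lowest in E14.5 HARE5Hs/Hs, and in the lower panel genes run from Kif1c, which fell, to Kif5a, with log2 fold changes of 1.54 and 1.88.

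Kif11, the bipolar kinesin-5 that slides spindle microtubules apart, was at 288, 299.7 and 273 CPM in WT and 324, 294 and 326 CPM in HARE5Hs/Hs at E12.5, and at 257, 264 and 304 CPM and 245, 196 and 227 CPM at E14.5. Ages overlapped in WT and not in HARE5Hs/Hs. Its log2 fold change was −0.06 ± 0.09 in WT (edgeR adjusted p = 0.638) and −0.50 ± 0.09 in HARE5Hs/Hs (edgeR adjusted p = 0.00114). Kif15, a kinesin-12 that also works on the bipolar spindle, showed the same layout. It was at 149.9, 191 and 137 CPM and 171, 186 and 167 CPM at E12.5, and at 126, 138 and 137 CPM and 117, 92.0 and 99.0 CPM at E14.5. Its log2 fold change was −0.25 ± 0.12 in WT (edgeR adjusted p = 0.117) and −0.77 ± 0.12 in HARE5Hs/Hs (edgeR adjusted p = 0.000392), the largest fall among mitotic kinesins.

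Chromokinesins Kif22 and Kif4 bind chromosome arms, and Kif4 also sets the length of midzone microtubules. Kif22 was at 138, 174 and 169 CPM in WT and 157, 174 and 163 CPM in HARE5Hs/Hs at E12.5, and at 109.8, 140.5 and 134 CPM and 117, 98.7 and 98.6 CPM at E14.5. The lowest E12.5 WT library lay just below the highest of E14.5 WT. It had a log2 fold change of −0.32 ± 0.11 in WT (edgeR adjusted p = 0.0435) and −0.65 ± 0.11 in HARE5Hs/Hs (edgeR adjusted p = 0.000785). The WT call of Kif22 was lost on leaving out WT embryo 2 (adjusted p = 0.18) or 3 (0.155) of E12.5, or 1 (0.153) or 3 (0.0778) of E14.5. Kif4 was at 141, 158 and 143 CPM and 163, 164 and 154 CPM at E12.5, and at 126, 150.5 and 135 CPM and 130.4, 104 and 93.0 CPM at E14.5. The third HARE5Hs/Hs embryo was the lowest, and log2 fold changes were −0.11 ± 0.11 in WT (edgeR adjusted p = 0.479) and −0.55 ± 0.11 in HARE5Hs/Hs (edgeR adjusted p = 0.00189).

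Kif20a carries the chromosomal passenger complex to the midzone, and Kif2c depolymerises microtubules at centromeres. Kif20a was at 202, 234 and 220.4 CPM in WT and 193, 213 and 208 CPM in HARE5Hs/Hs at E12.5, and at 166, 169 and 182 CPM and 157, 129 and 137 CPM at E14.5. It was the mitotic kinesin that passed in WT in all 6 fits that left out 1 library, and its groups did not overlap between ages. The log2 fold change of Kif20a was −0.34 ± 0.09 in WT (edgeR adjusted p = 0.009) and −0.53 ± 0.09 in HARE5Hs/Hs (edgeR adjusted p = 0.000455). Kif2c was at 125, 143 and 140.3 CPM and 137, 136 and 132 CPM at E12.5, and at 106, 127 and 118 CPM and 99.0, 91.5 and 92.1 CPM at E14.5. It had a log2 fold change of −0.22 ± 0.08 in WT (edgeR adjusted p = 0.0481) and −0.52 ± 0.08 in HARE5Hs/Hs (edgeR adjusted p = 0.000357). The WT ages overlapped, and the WT call of Kif2c was lost on leaving out WT embryo 2 (adjusted p = 0.204) or 3 (0.174) of E12.5, or 1 (0.156) or 3 (0.122) of E14.5.

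The other 6 mitotic kinesins did not pass in WT, where their log2 fold changes ran from −0.21 (Kif18b) to 0.03 (Kif18a). In HARE5Hs/Hs, Kif18a, which damps chromosome movement, fell by 0.58 on the log2 scale (SE 0.16, edgeR adjusted p = 0.0128), and Kif20b, a motor of late cytokinesis, fell by 0.53 (SE 0.14, edgeR adjusted p = 0.00802). Kifc1, which focuses spindle poles, fell by 0.39 (SE 0.11, edgeR adjusted p = 0.0112), within the limit its copy sets. Kif18b, a motor of astral microtubules, and Kif23, of the centralspindlin complex, both fell by 0.33 (edgeR adjusted p = 0.0122 and 0.0167). Kif14, a motor of cytokinesis, had a log2 fold change of −0.28 ± 0.11 that did not pass (edgeR adjusted p = 0.0559). Without single libraries, Kif18a missed the threshold once (adjusted p = 0.0511, without E14.5 HARE5Hs/Hs replicate 2). Kif23 missed it without E12.5 HARE5Hs/Hs replicate 1 (0.0569) or 2 (0.0672) and without E14.5 HARE5Hs/Hs replicate 2 (0.0764) or 3 (0.0675). Kif18b and Kifc1 missed it without E12.5 HARE5Hs/Hs replicate 2 (0.0788 and 0.0752) and E14.5 HARE5Hs/Hs replicate 3 (0.0705 and 0.0668), and Kif14 passed without E14.5 HARE5Hs/Hs replicate 1 (0.0132).

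Genes of late cell cycle phases often carry a short promoter element, and the promoters of both classes were read. The cell cycle genes homology region (CHR) was searched as TTTGAA or TTCGAA, and the CCAAT box as CCAAT, each on both strands, in RefSeq windows (build GRCm38.p6) from 250 bases before to 50 after an annotated start site. CHR letters were in 10 of the 12 mitotic windows found (83.3%), with Kif18a and the silent Kif2b as the exceptions, in 1 of 12 windows of 10 transport genes (8.33%, 1 window of Kif1a) and in 19.2% of all 32851 windows. CCAAT was in 66.7, 33.3 and 37.4%, and both sets of letters in 58.3, 0 and 7.52%. Both Kif1b windows were counted, although they overlap and hold the same CCAAT letters. By gene, CCAAT was in 3 of 10 transport genes. CHR and CCAAT letters do not overlap each other, and median GC content was 60.2, 68.2 and 52.7%. Some start sites lay inside the gene, past its outermost RefSeq start: by 1547 bases in Kif14, 3852 in Kif2c, 1668 in Kif3a and 19559 in the Kif1a window with CHR letters. Over windows whose start site lay within 200 bases of the outermost start, a limit chosen after seeing the data, CHR letters were in 8 of 10 mitotic windows (80%), 0 of 10 transport windows and 19.9% of all 24742 windows. CCAAT was in 70, 30 and 38.6% of these, again with both Kif1b windows counted, and both sets in 60, 0 and 7.91%. A match is a description of the sequence, not evidence of a bound site. The 120 bases before the start site are shown for 2 mitotic genes that fell in HARE5Hs/Hs and 2 transport genes that rose in both genotypes, all with the start site at the outermost start of the gene. They are written 5′ to 3′ on the gene's strand, with CHR and CCAAT letters of either strand in capitals (TTCAAA and ATTGG are their opposite-strand forms). They are Kif11 (chr19:37376262-37376381, plus strand), Kif15 (chr9:122950961-122951080, plus), Kif3c (chr12:3365012-3365131, plus) and Kif5c (chr2:49619166-49619285, plus).
Kif11: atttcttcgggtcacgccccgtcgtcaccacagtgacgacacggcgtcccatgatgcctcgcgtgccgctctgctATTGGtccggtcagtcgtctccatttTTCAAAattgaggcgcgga
Kif15: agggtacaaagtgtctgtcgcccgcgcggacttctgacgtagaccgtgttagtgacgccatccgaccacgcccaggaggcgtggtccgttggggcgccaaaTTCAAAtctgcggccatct
Kif3c: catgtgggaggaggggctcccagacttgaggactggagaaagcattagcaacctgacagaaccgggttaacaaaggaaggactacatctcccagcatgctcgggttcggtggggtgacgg
Kif5c: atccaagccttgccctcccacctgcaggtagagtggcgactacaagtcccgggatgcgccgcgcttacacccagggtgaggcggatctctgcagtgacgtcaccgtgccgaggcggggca
The CHR letters began at position −19 in Kif11 and Kif15, counted from the start site, and the CCAAT letters at −45 in Kif11. The 120 bases of Kif15 hold no CCAAT letters, and those of Kif3c and Kif5c hold neither set. No rule was set for choosing the genes shown. The whole window of Kif18a, which also fell in HARE5Hs/Hs, holds neither set. Windows of Kif1b and Kif3b, which rose in both genotypes, hold CCAAT letters.

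Mitotic kinesin levels moved together with markers of cycling cells. The mean log2 CPM of the 12 mitotic kinesins was 6.79 ± 0.12 in WT and 6.86 ± 0.04 in HARE5Hs/Hs at E12.5, and 6.64 ± 0.10 and 6.36 ± 0.14 at E14.5 (SD, n = 3). The mean of the 6 cycling cell markers (Mki67, Top2a, Ccna2, Ccnb1, Cdk1 and Cenpf) was 8.69 ± 0.16, 8.77 ± 0.04, 8.54 ± 0.10 and 8.26 ± 0.14 in the same order. The difference between these means lay between −1.96 and −1.85 in all 12 libraries, with group means of −1.90, −1.91, −1.90 and −1.91. Of those 6 markers, 1 fell in WT and 5 in HARE5Hs/Hs, beside 15.2% and 22% of all genes. The part of the markers in the kinesin values was not tested.

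Transport kinesins did not keep such a constant distance from neuron markers. Their mean log2 CPM was 6.15 ± 0.18 in WT and 6.22 ± 0.15 in HARE5Hs/Hs at E12.5, and 6.69 ± 0.07 and 6.82 ± 0.09 at E14.5. The 8 neuron markers rose further, from 6.12 ± 0.20 and 6.44 ± 0.63 to 7.99 ± 0.20 and 8.56 ± 0.43. All 8 passed in both genotypes, beside 20% (WT) and 23.7% (HARE5Hs/Hs) of all genes called higher. Transport minus neuron markers lay between −0.77 and 0.13 at E12.5 and between −2.13 and −1.20 at E14.5. E12.5 HARE5Hs/Hs replicate 1 was the E12.5 library with the highest neuron marker sum (2275 CPM), and it was also the highest of the 6 E12.5 libraries for Kif5a, Kif3c, Kif1a, Kif1b, Kif5c and Kif21b.

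**Figure D4:**
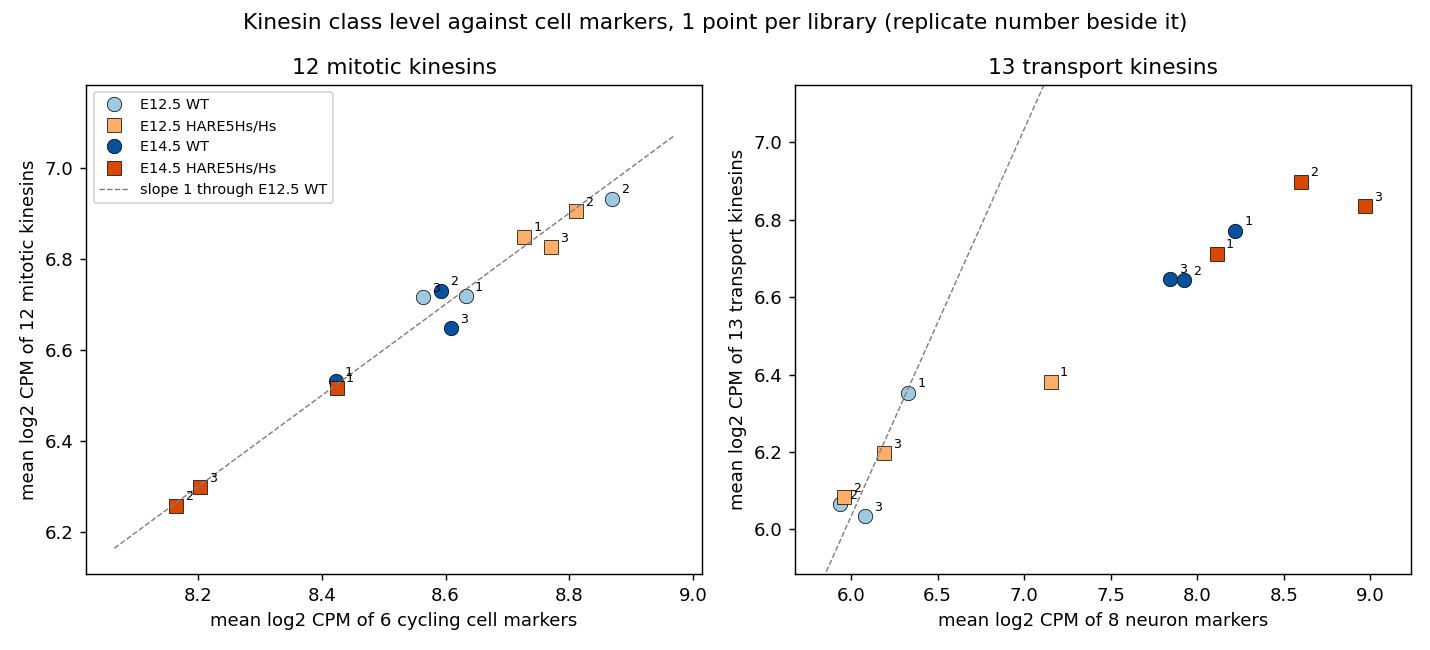
Mean log2 CPM of the 12 mitotic kinesins against that of 6 cycling cell markers (left) and of the 13 transport kinesins against that of 8 neuron markers (right), 1 point per library with its replicate number; the dashed line has slope 1 through the E12.5 WT mean. Mitotic points stay within −1.96 to −1.85 of the markers, while transport points at E14.5 lie below the line.

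Mitotic minus transport mean log2 CPM gives the balance of the classes. It was 0.64 ± 0.25 in WT and 0.64 ± 0.18 in HARE5Hs/Hs at E12.5, and −0.05 ± 0.17 and −0.46 ± 0.23 at E14.5 (SD, n = 3, described without a test). The E14.5 values were −0.24, 0.09 and 0.00 in WT and −0.20, −0.64 and −0.54 in HARE5Hs/Hs, so the first HARE5Hs/Hs embryo lay within the WT range and the other two below it. With class sums of CPM in place of means of logs, which lets abundant genes weigh more, all 4 group means were negative, at −0.27 and −0.30 at E12.5 and −1.235 and −1.725 at E14.5, the lowest again in E14.5 HARE5Hs/Hs.

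Cilium kinesins were mostly low. None of 6 passed in WT and 1 fell in HARE5Hs/Hs, no excess over all genes. Over all genes, 35.2% passed in WT (15.2% lower) and 45.7% in HARE5Hs/Hs (22% lower). The 1 was Kif24, which acts at centrioles and restrains cilium growth. It fell in HARE5Hs/Hs by 0.65 (SE 0.12, edgeR adjusted p = 0.00123), from 41.3, 42.3 and 38.3 CPM to 28.4, 25.2 and 24.1 CPM. Its WT log2 fold change was −0.30 ± 0.12 (edgeR adjusted p = 0.0773). Kif7, which acts in Hedgehog signalling at the cilium tip, had log2 fold changes of −0.26 ± 0.12 and −0.24 ± 0.12 that did not pass. The motors of motile cilia, Kif6, Kif9, Kif19a and Kif27, stayed at or below 10.3 CPM in every library. E14.5 HARE5Hs/Hs replicate 3 had the lowest choroid plexus marker sum and also the fewest counts (11593202) of the 12 libraries. There Kif27 was at 1.28 CPM, Kif6 at 1.00 CPM, Kif9 at 0.911 CPM and Kif19a at 0 CPM, each the lowest of the 12 libraries. These genes rest on few counts, and the part of depth or choroid plexus in their values was not tested. Among the remaining motors, Kifc2, a minus-end motor of the nervous system, rose from 7.47, 3.68 and 5.52 CPM to 9.76, 9.85 and 10.4 CPM in WT and from 6.97, 5.60 and 4.59 CPM to 10.8, 17.8 and 11.6 CPM in HARE5Hs/Hs. It had a log2 fold change of 0.85 ± 0.28 in WT (edgeR adjusted p = 0.0323) and 1.22 ± 0.28 in HARE5Hs/Hs (edgeR adjusted p = 0.00372), and the WT call of Kifc2 was lost on leaving out WT embryo 2 (0.106) or 3 (0.0727) of E12.5 or any of the 3 of E14.5 (0.063 to 0.0775). Kifc3 passed in neither genotype.

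Genes that work with the motors were compared in the same fit. Of 18 spindle and midzone partners, 6 fell in WT, and 16 fell and 1 rose in HARE5Hs/Hs, with medians of −0.25 and −0.54. DESeq2 called 10 lower in WT, and 16 lower and 1 higher in HARE5Hs/Hs. Beside these counts, and those of the adaptor and dynein lists below, stand the edgeR shares of all genes. They were 20% higher and 15.2% lower in WT, and 23.7% higher and 22% lower in HARE5Hs/Hs. Birc5, a subunit of the chromosomal passenger complex, fell by 0.66 (SE 0.14) in WT and 1.05 (SE 0.14) in HARE5Hs/Hs on the log2 scale (edgeR adjusted p = 0.00363 and 0.000159). Its fellow subunit Cdca8 fell by 0.59 and 0.84 (SE 0.12 in both, edgeR adjusted p = 0.00311 and 0.000255) and the mitotic kinase Plk1 by 0.59 and 0.73 (SE 0.11 in both, edgeR adjusted p = 0.00224 and 0.000371). Numa1, a spindle pole protein, was the member that rose in HARE5Hs/Hs, by 0.20 ± 0.07 (edgeR adjusted p = 0.0321), a call lost without E12.5 HARE5Hs/Hs replicate 2 or 3 and without E14.5 HARE5Hs/Hs replicate 2 or 3.

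Of 19 kinesin light chains and cargo adaptors, 13 rose in WT and none fell, and 13 rose and 1 fell in HARE5Hs/Hs, with medians of 0.38 and 0.52. The count lower in HARE5Hs/Hs was 0 in 5 of the 6 fits that left out 1 HARE5Hs/Hs library, all but the fit without E14.5 replicate 1. Trak1, which links kinesin-1 to mitochondria, rose by 0.74 ± 0.10 and 1.01 ± 0.10 on the log2 scale (edgeR adjusted p = 0.00029 and 3.66e-05). The scaffold Mapk8ip2 rose by 0.61 ± 0.09 and 0.95 ± 0.09 (edgeR adjusted p = 0.000635 and 4.01e-05), and Arl8a, a GTPase that recruits motors to lysosomes, by 1.17 ± 0.18 and 1.49 ± 0.18 (edgeR adjusted p = 0.000614 and 9.82e-05). Kif1bp, which binds and inhibits several kinesins, belongs to this list and rose by 0.33 ± 0.10 and 0.46 ± 0.10 (edgeR adjusted p = 0.021 and 0.00263). The WT call of Kif1bp was lost on leaving out WT embryo 1 (0.0689) or 3 (0.0536) of E12.5, or 1 (0.113) of E14.5.

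Dynein moves cargo in the direction opposite to most kinesins. Of 23 dynein and dynactin genes, 12 rose and 1 fell in WT, and 17 rose and 1 fell in HARE5Hs/Hs, with medians of 0.23 and 0.38. The count lower in WT was 0 on leaving out WT embryo 2 or 3 of E12.5, or 1 or 3 of E14.5, and 2 in DESeq2. Dync1i1, the intermediate chain of neurons, went from 0.718 ± 0.266 CPM at E12.5 to 17.2 ± 3.75 CPM at E14.5 in WT, and from 0.901 ± 0.338 to 26.5 ± 10.9 CPM in HARE5Hs/Hs (SD, n = 3). That was a log2 fold change of 4.57 ± 0.42 in WT and 4.87 ± 0.42 in HARE5Hs/Hs (edgeR adjusted p = 5.43e-05 and 1.88e-05), larger than that of any kinesin tested. Actr1a, the filament of dynactin, rose by 0.51 ± 0.07 and 0.58 ± 0.07 (edgeR adjusted p = 0.000373 and 0.000104), and Dync1li1, a light intermediate chain, by 0.47 ± 0.08 and 0.52 ± 0.08 (edgeR adjusted p = 0.00146 and 0.000457).

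Between genotypes, no kinesin passed at either age. At E12.5, 0 of 14311 genes (0%) passed in edgeR and 0 in DESeq2, with 322 (2.25%) at an unadjusted p under 0.05, among them 1 kinesin motor. Without single libraries that count of motors ran from 0 to 3, the highest on leaving out WT embryo 2 or HARE5Hs/Hs embryo 2 of E12.5, and it was 2 without WT replicate 1 and 0 without WT replicate 3 or HARE5Hs/Hs replicate 1 or 3. The mitotic kinesins were split, 8 above 0 and 4 below, with a median log2 difference of 0.08 (HARE5Hs/Hs over WT). The motor was Kif7, at 38.1, 39.4 and 39.6 CPM in WT and 30.1, 34.4 and 31.7 CPM in HARE5Hs/Hs. All 3 HARE5Hs/Hs embryos were lower, with a log2 difference of −0.28 ± 0.12 (edgeR unadjusted p = 0.0395, adjusted p = 1). Kif20b was at 72.2, 73.9 and 51.9 CPM in WT and 80.5, 80.2 and 80.1 CPM in HARE5Hs/Hs. The lowest HARE5Hs/Hs library, at 80.1 CPM, lay above the highest WT library, at 73.9 CPM, and the log2 difference was 0.28 ± 0.14 (edgeR unadjusted p = 0.063, adjusted p = 1). With WT embryo 3 of E12.5 left out, the difference of Kif20b was 0.14.

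At E14.5 all 12 mitotic kinesins were lower in HARE5Hs/Hs than in WT, and none passed. Over all genes 0 of 14311 (0%) passed in edgeR and 37 (0.223% of those DESeq2 tested) in DESeq2, no kinesin among them, with 1708 (11.9%) at an unadjusted p under 0.05. At that unadjusted level stood 8 of the 12 mitotic kinesins and 12 of 38 motors. These counts were 4 and 5 without E14.5 HARE5Hs/Hs replicate 3, the library that stood apart, where Kif11, Kif15, Kif20a, Kif2c and Kif7 were left. They were 5 and 6 without HARE5Hs/Hs replicate 2, 4 and 5 without WT replicate 2, and 10 and 19 without HARE5Hs/Hs replicate 1, while all 12 mitotic differences were below 0 in each of the 6 fits. The median log2 difference was −0.29 for mitotic and 0.17 for transport kinesins, beside −0.01 over all genes. Kif2c, with 106, 127 and 118 CPM in WT against 99.0, 91.5 and 92.1 in HARE5Hs/Hs, had the smallest p, with a log2 difference of −0.31 ± 0.08 (edgeR unadjusted p = 0.00207, adjusted p = 0.342). Kif20a followed, with −0.29 ± 0.09 (edgeR unadjusted p = 0.00542, adjusted p = 0.342), and its genotypes did not overlap either (166 to 182 against 129 to 157 CPM). Among motors above 0, Kif5a had a difference of 0.56 ± 0.23, Kif26a of 0.35 ± 0.15 and Kifc3 of 0.70 ± 0.26 (edgeR adjusted p = 0.39, 0.405 and 0.343). E14.5 HARE5Hs/Hs replicate 2 was the lowest of the 6 E14.5 libraries for 7 mitotic kinesins and replicate 3 for the other 5, while replicate 3 was the highest for 8 of 13 transport kinesins. Those libraries also had the lowest cycling marker sums (2283 and 2364 CPM) and the highest neuron marker sums (5356 and 5720 CPM) of the 6, and the part of these markers in the kinesin values was not tested. Marker lists of other cell types were also compared between genotypes at E14.5. All 7 erythroid markers tested were higher in HARE5Hs/Hs at an unadjusted p under 0.05 (median log2 difference 1.70), of which edgeR called 0 and DESeq2 1. The 7 ventral telencephalon markers were all above 0 (median 1.49), 1 of them at an unadjusted p under 0.05, with 0 called by edgeR and 1 by DESeq2. The 7 meninges markers were all below 0 (median −1.18), 1 of them at an unadjusted p under 0.05 and 0 called by either tool. Their sums overlapped between genotypes (93.11 to 842.6 CPM in WT, 10.93 to 435.1 CPM in HARE5Hs/Hs). The 7 radial glia markers were split, 3 above 0 and 4 below (median −0.004). Of these, 1 had an unadjusted p under 0.05 and 0 were called by either tool. The part of these lists in the kinesin differences was not tested.

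Averaged over both ages, no gene passed in edgeR (0%) or DESeq2, with 1366 genes (9.55%) at an unadjusted p under 0.05, 7 of them kinesin motors. That count was 3 without E14.5 HARE5Hs/Hs replicate 3 (Kif20a, Kif2c and Kif7). It was also 3 without E12.5 HARE5Hs/Hs replicate 1, E14.5 HARE5Hs/Hs replicate 2 or WT embryo 2 of E14.5, 4 on leaving out WT embryo 2 or 3 of E12.5, and 12 without E12.5 HARE5Hs/Hs replicate 2 or E14.5 HARE5Hs/Hs replicate 1. The 2 kinesins with the smallest p were Kif20a, with a log2 difference of −0.19 ± 0.06 (edgeR unadjusted p = 0.00744, adjusted p = 0.508), and Kif7, with −0.28 ± 0.09 (edgeR unadjusted p = 0.00814, adjusted p = 0.508).

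The genotype by age interaction asks whether the change from E12.5 to E14.5 differed between genotypes, and no kinesin passed it. No gene passed in edgeR (0%) and 1 did in DESeq2 (0.00558%), not a kinesin, with 731 genes (5.11%) at an unadjusted p under 0.05. All 12 mitotic kinesins had an interaction below 0, that is a log2 fold change lower in HARE5Hs/Hs than in WT. Kif18a and Kif20b did not fall in WT, at 0.03 and 0.01. The median was −0.31, beside −0.02 over all genes, of which 7546 of 14311 lay below 0. Of the mitotic kinesins, 6 (Kif11, Kif15, Kif18a, Kif20b, Kif2c and Kif4) had an unadjusted p under 0.05. Kif11 had the smallest p, with −0.44 ± 0.13 (edgeR unadjusted p = 0.0059, adjusted p = 0.921), followed by Kif15 with −0.51 ± 0.17 (edgeR unadjusted p = 0.00998, adjusted p = 0.921). Among transport kinesins 10 of 13 were above 0, with a median of 0.08, and none had an unadjusted p under 0.05, whereas 2 had one without E12.5 HARE5Hs/Hs replicate 1. Over all motors the 6 at that level became 11 without E12.5 HARE5Hs/Hs replicate 1 or E14.5 HARE5Hs/Hs replicate 1. Without E14.5 HARE5Hs/Hs replicate 3, Kif2c missed that level (edgeR unadjusted p = 0.0508), and only Kif11, Kif15, Kif18a, Kif20b and Kif4 were left. Over the 12 fits without single libraries, the interaction ran from −0.50 to −0.35 for Kif11 and from −0.67 to −0.42 for Kif15.

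**Figure D5:**
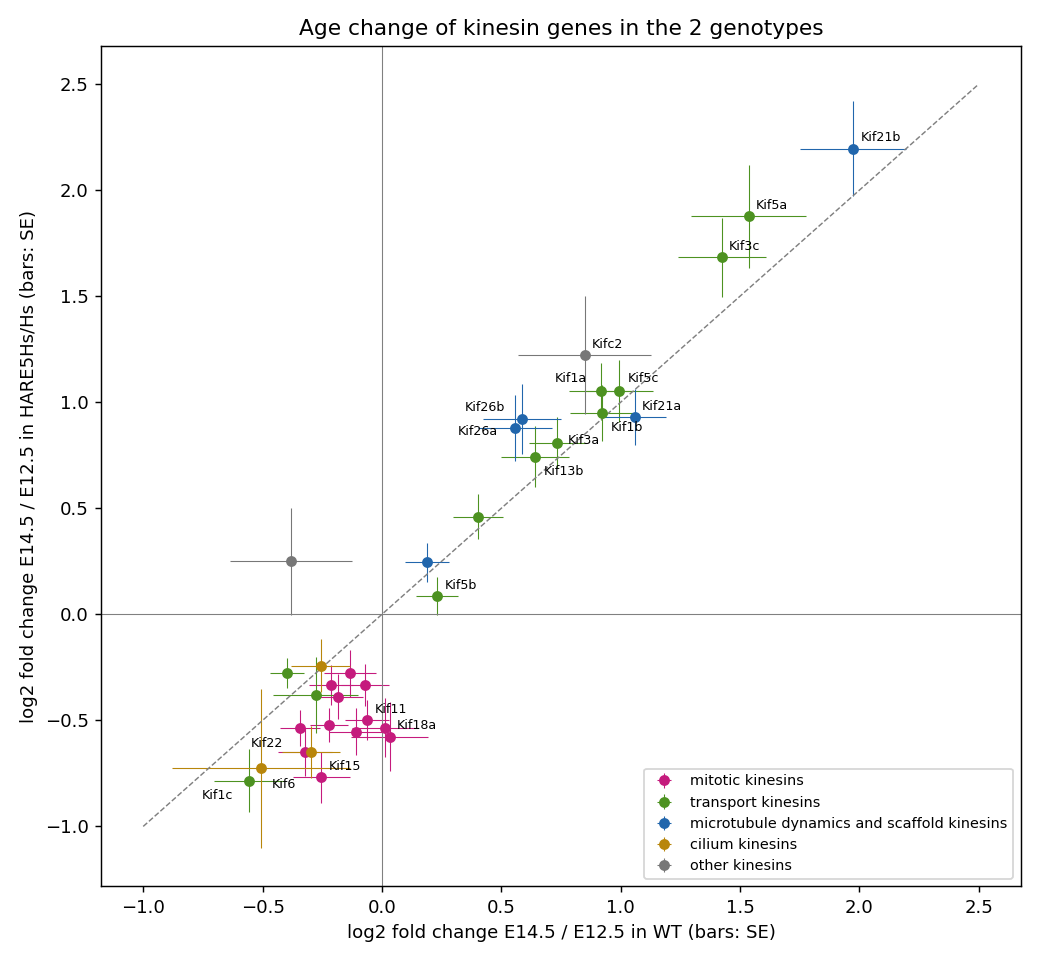
Log2 fold change of E14.5 over E12.5 in WT (horizontal) and HARE5Hs/Hs (vertical) for the 34 kinesin motors with an SE under 0.4 in WT, coloured by class, with bars of SE; the dashed line marks equal change. Mitotic kinesins lie below the line and Kif21b, Kif5a and Kif3c lie highest, and no kinesin passed the interaction test.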

How the data were processed

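Each library is mRNA (TruSeq Stranded mRNA) from the cortex of 1 mouse embryo. The tools named in the submitters' processing notes are STAR and DESeq2, and the build is mm39. The names of the deposited tables hold star_salmon, which names Salmon beside STAR. Whether reads were counted by strand is not given in the sources used here. Reads of overlapping genes on opposite strands may therefore not be separated. Per the file headers, each of 2 deposited tables holds expected counts (all whole numbers), FPKM values, and for the age comparison of 1 genotype the authors' log2 fold changes and p-values. In each table, 12 columns of 6 further libraries match no sample and were not used here.

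Kinesins, classes, lists, the naming rule and alternatives were chosen with earlier results of these data known. Counts were analysed in R 4.3.3 with edgeR 4.0.16 (limma 3.58.1): filterByExpr by group at its minimum of 10 counts, which kept 14311 genes, TMM scaling, and 1 quasi-likelihood fit of all 12 libraries with 1 mean per group. Tests are 2-sided, and p-values were adjusted by Benjamini-Hochberg over all genes within each of 6 contrasts. A log2 fold change is E14.5 over E12.5, or HARE5Hs/Hs over WT. Its SE is its size over the square root of the F statistic, an approximation. CPM use TMM-scaled totals of the tested genes, and log2 CPM a prior count of 2. The fit was tested on simulated data and set beside DESeq2 1.42.0. The labels call the embryos biological replicates. Named with values in every library are the 6 mitotic, 6 transport and 4 other kinesins with the smallest p for age averaged over genotypes, the 2 with the smallest p in each genotype contrast, and those that moved against their class. From each partner list the 3 genes with the smallest such p are named. Kif5b, Kif24, Kifc2 and Numa1 were added after their values were seen. Promoters were matched by symbol for 12 of 13 mitotic and 10 of 13 transport genes and are in a different build from the files. Promoter shares were also taken over windows near the outermost gene start, chosen after seeing the data. A planned protein comparison was not run.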

Additional observations from a re-analysis of the deposited data

How the results depend on the processing

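The results were recomputed with DESeq2, with its size factors in edgeR, without a filter on low counts, with a stricter one, with only the compared libraries, with the replicate number as a block, and with each library left out. Transport counts stayed at 8 higher and 2 lower under all of these except single libraries left out (7 to 8 higher in WT; 2 to 3 lower in HARE5Hs/Hs). The 3 mitotic kinesins lower in WT became 1 without a filter, 1 with the replicate block and 2 with only the compared libraries (Kif2c was lost), and 1 to 4 without single libraries; the 11 in HARE5Hs/Hs became 8 to 12. Motors called ranged from 12 to 18 (WT) and 24 to 29 (HARE5Hs/Hs) without single libraries, and all genes called from 3245 to 4843 (WT) and 4930 to 6443 (HARE5Hs/Hs). No kinesin was called between genotypes or for the interaction under any alternative. All genes called at E14.5 between genotypes were 37 in DESeq2 and 0 to 19 without single libraries, and for the interaction 1 and 0 to 2, the highest being without E14.5 HARE5Hs/Hs replicate 1. No label says whether equal replicate numbers pair the embryos. Between WT and HARE5Hs/Hs libraries of equal number, correlations of deviations from the group mean were 0.0963, 0.336 and 0.124 at E12.5. At E14.5 they were −0.112, −0.144 and −0.443. Unequal numbers were not compared, so these values cannot decide on pairing. The replicate block ended the WT calls of Kif2c and Kif22 and added Kif14 in HARE5Hs/Hs (edgeR adjusted p = 0.0615, 0.0504 and 0.0471). The class balance by summed CPM was −0.27, −0.30, −1.235 and −1.725. Small uncalled values changed sign. In WT, Kif20b was −0.01208 with DESeq2, −0.01197 with its size factors and −0.01688 with only the compared libraries, and −0.12 to 0.12 without single libraries; Kif18a was −0.10 to 0.31; Kif9 was 0.01181 without a filter and −0.51 to 0.23; Kif17 was −0.01363 to 1.04. In HARE5Hs/Hs, Kif2a was lost with only the compared libraries (adjusted p = 0.0867), Kif9 was 0.18 with the block and −0.65 to 0.53, and Kif17 −0.25 to 1.07. The cause of these changes was not tested. Size factors moved the median of all genes by less than 0.1 in every contrast. With 3 embryos per group, small differences between genotypes were not resolved, and Kif6, Kif9, Kif17, Kif19a and Kif27 rest on few counts.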
